A study of Saccharomyces cerevisiae with 6 samples.

Results

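Of 5642 array spots with values in both assays, 142 carried their lowest signal 30 min after release from the G1 arrest in active RNA polymerase II and in total RNA polymerase II alike, and were higher again at 60 min. The spots were chosen on the measured values themselves. The genomic run-on (GRO) ratio had to be lower at 30 min than at both 0 and 60 min by at least 0.5 on the log2 scale, and the RNAp ChIP ratio by at least 0.4. These 142 spots were 2.52% of those measured in both assays. A spot is a position on a nylon filter that carries a probe, as a rule a whole yeast ORF. The study also describes rDNA spots, which were not set apart here. The files do not pair spots with genes, so no gene name, function or sequence can be attached to the values, and the spots are described by their position and their depth.

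The study followed BY4741 cells of Saccharomyces cerevisiae that carried the plasmid pRS316 and were arrested in G1 with alpha factor, the mating pheromone that stops cells at START. The 3 time points were the arrested culture (0 min) and cultures 30 and 60 min after alpha factor was removed. The same strain and arrest were used in all 6 groups, so every later sample had also been through the arrest. Each time point had 3 replicates in each assay, although the description of GRO at 30 min names replicates 1 and 2 while 3 hybridizations are present, all of which were used. All samples were whole cultures of a single strain that passed through S phase towards mitosis with imperfect synchrony, so fewer cells using a gene and less polymerase per cell cannot be told apart. The methods speak of 3 experiments and took the samples for both assays from the released cultures, but neither they nor the labels say what a replicate number marks, so the spread between replicates may be partly technical.

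RNA polymerase II makes all yeast mRNA, and a gene can carry polymerases that are moving and polymerases that are paused or inactive. GRO labels the RNA that elongating polymerases go on to make in permeabilized cells, so its ratio to genomic DNA on the same filter reads active polymerase. RNAp ChIP precipitates DNA crosslinked to the polymerase subunit Rpb3, so its ratio of precipitate (IP) to whole cell extract (WCE) reads total polymerase, moving or not. Many yeast genes are transcribed in waves tied to one phase of the cell cycle.

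Run-on RNA, IP and WCE gave 9 hybridizations each and genomic DNA gave 7, in all 34. Their median intensities ran from 35.7 to 616, with 85 to 362 of 6144 spots at 0, and no hybridization repeated another. Ratios were centred on the median of each hybridization, so every value below is a log2 ratio relative to the other spots of that hybridization. Replicates of one time point correlated across spots at r = 0.747 to 0.855 in GRO and 0.697 to 0.876 in RNAp ChIP, over 9 pairs each. The later pair of RNAp ChIP samples carries titles and descriptions that contradict each other over which is 30 and which is 60 min; times here follow the descriptions, with which the names of the deposited files agree. With the titles instead, 27 spots met the rule. None of the 142 could be among them, since the exchange turns the sign of the RNAp ChIP difference between 30 and 60 min.

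In GRO the median level of the 142 spots was 0.69, 0.72 and 0.93 in the 3 replicates at 0 min. At 30 min it was -0.63, -0.55 and -0.63, and at 60 min it was 0.46, 0.59 and 0.49. The middle time point thus lay below both others in every hybridization, as the choice of the spots requires of their means. The mean of the 3 medians was 0.78 ± 0.13 (SD, n = 3) at 0 min, -0.60 ± 0.046 at 30 min and 0.51 ± 0.072 at 60 min.

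In RNAp ChIP the median level was 0.27, 0.41 and 0.42 at 0 min, -0.71, -0.52 and -0.52 at 30 min, and 0.38, 0.24 and 0.32 at 60 min. The means of these medians were 0.37 ± 0.082 (SD, n = 3), -0.59 ± 0.11 and 0.31 ± 0.070. The level at 30 min was therefore almost the same distance below the centre in the 2 assays, while the level at 0 min was farther above it in GRO.

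**Figure D1:**
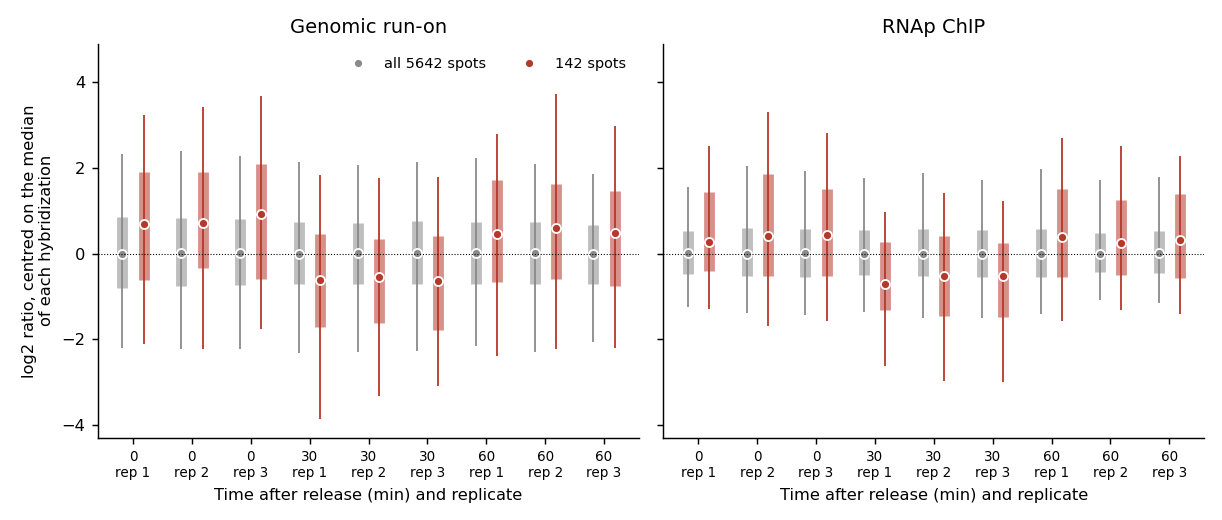
Centred log2 ratio of run-on RNA to genomic DNA (left) and of IP to WCE (right) in each hybridization, by time after release and replicate. Points are medians, thick bars the interquartile range of the spots and thin lines the 5th to 95th percentiles, for all 5642 spots (grey) and the 142 spots (red). The red medians lie between 0.24 and 0.93 at 0 and 60 min and between -0.71 and -0.52 at 30 min, and the red bars are wide at every time.

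As a description of the choice, GRO at 30 min was lower than at 0 min by a median of 1.13 on the log2 scale, or 2.19-fold, with a range over the spots of -5.69 to -0.51. Against 60 min the median difference was -0.995 (range -4.20 to -0.52). For RNAp ChIP the median difference was -0.98 against 0 min (range -6.39 to -0.40) and -0.98 against 60 min (range -3.54 to -0.41). Over all 5642 spots the same 4 medians were -0.01, 0.04, 0.01 and -0.03. The dip was about a factor of 1.97 to 2.19 for a typical spot, with a long tail of much deeper ones.

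The mean of the 4 differences, called depth here, had a median of -1.11 and ran from -3.50 to -0.55. A depth of -2 or below was found at 15 spots, 66 lay between -2 and -1, and 61 were above -1. The interquartile range of the differences in GRO ran from -1.84 to -0.87 against 0 min, and in RNAp ChIP from -1.45 to -0.66. Most of the 142 spots were therefore moderate dips and a small group was deep.

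All 9 GRO values were present at 125 of the spots, all 9 RNAp ChIP values at 132, and all 18 values at 121. The other 21 rested on fewer values. In GRO, the 3 replicates at 30 min all lay below all 6 replicates of 0 and 60 min at 82 of the 142 spots, against 5.21% of all spots. In RNAp ChIP this held at 90 of them, against 6.54%. In both assays together it held at 59, against 1.35%. Since the choice used these same values, the counts describe how the replicates of the chosen spots lie and test nothing.

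The residual spread of replicates around their group means had a median SD of 0.43 in GRO for the 142 spots and 0.40 for all spots. In RNAp ChIP it was 0.36 against 0.30. The median spread of the chosen spots was thus slightly larger in both assays. Single spots within 0.1 of a limit numbered 46, and 61 further spots missed the rule by less than 0.1. The spot nearest the limit on the inside had differences of -1.70 and -0.62 in GRO and of -0.400 and -0.457 in RNAp ChIP. The nearest on the outside had -0.494 and -1.82 in GRO and -1.64 and -2.23 in RNAp ChIP, and missed on its first difference alone. In all, 305 spots met exactly 3 of the 4 limits, most often missing the GRO difference between 30 and 60 min (121 spots).

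Numerators and denominators were also centred and compared on their own. The run-on RNA of the 142 spots at 30 min was lower than at 0 min by a median of 1.06 on the log2 scale, below 0 at 137 of the 142. Against 60 min its median difference was -0.80, below 0 at 127. The genomic DNA under these values differed by a median of 0.070 against 0 min and 0.228 against 60 min, where all spots had 0.013 and 0.031. The run-on RNA carried most of the difference, and the genomic DNA of the filters used at 30 min was also somewhat brighter at these spots than that of the filters used at 60 min.

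In RNAp ChIP the IP at 30 min had a median difference of -0.92 against 0 min, below 0 at 135 of 142 spots, and of -0.79 against 60 min, below 0 at 128. The WCE differed by a median of 0.009 against 0 min and 0.132 against 60 min, with medians of 0.007 and -0.002 over all spots. As in GRO, the denominator had moved little against 0 min and by more against 60 min. With the mean genomic DNA or WCE of all hybridizations as the denominator, 84 of the 142 spots met the limits and 119 kept all 4 differences below 0, while 292 spots of the array met the limits.

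**Figure D2:**
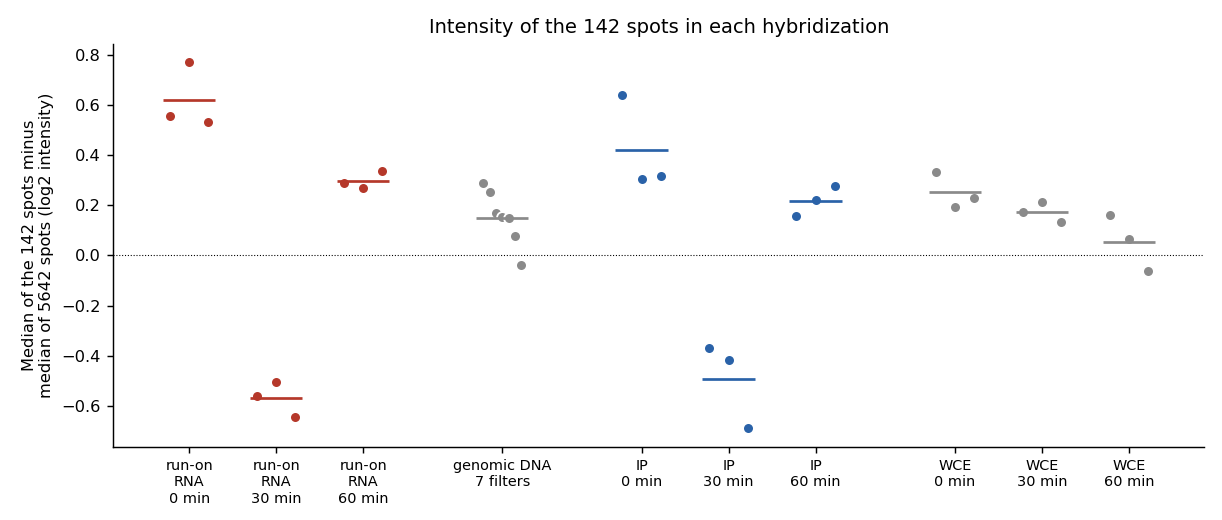
Median log2 intensity of the 142 spots minus that of all 5642 spots, in each of the 34 hybridizations (points; bars are means), before any ratio was taken. Run-on RNA lies 0.27 to 0.77 above the other spots at 0 and 60 min and 0.50 to 0.64 below them at 30 min, IP shows the same order, and genomic DNA and WCE stay between -0.06 and 0.33.

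The share of dim spots among the 142 was close to that among all spots. Among the 25% of spots with the dimmest genomic DNA were 28 of them (19.7%), against 19.4% of all spots measured in both assays, and among the 25% with the dimmest WCE were 25 of them (17.6%, against 19.3%). Of the 418 spots that met only the GRO limits, 47.6% had such dim genomic DNA, and of the 433 that met only the RNAp ChIP limits, 15.0%. The 107 spots that were highest at 30 min in both assays by the mirrored limits had 35.5%. At the 32 of the 142 spots with a dim denominator in either assay, the median SD of replicates was 1.05 in GRO and 0.60 in RNAp ChIP, and replicates separated fully in both assays at 7. At the other 110 the SDs were 0.38 and 0.32 and 52 separated fully, with a median GRO difference of -1.11 against 0 min.

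At 0 and at 60 min the spots sat high among all spots, which is a description only. The rule asks for higher values at these times than at 30 min in both assays. The order of the ranks and shares below therefore comes in part with the choice. The median percentile of the 142 spots among the 5642 at 0, 30 and 60 min was 76.0, 26.7 and 73.1 in GRO, and 72.7, 20.9 and 70.2 in RNAp ChIP. In the top 25% of both assays were 55 of them (38.7%) at 0 min, 14 (9.86%) at 30 min and 54 (38.0%) at 60 min, where all spots had 13.7%, 15.0% and 14.3%. In the bottom 25% of both were 22 (15.5%), 53 (37.3%) and 26 (18.3%), where all spots had 12.3%, 13.7% and 13.7%.

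The 73 spots in the top 25% of GRO at 0 min had a median GRO difference of -1.39 between 30 and 0 min, and the other 69 had -1.04. In RNAp ChIP these medians were -1.04 and -0.92. A high value at 0 min enters the rule, so this order is a description only. The correlation of GRO with RNAp ChIP levels across the 142 spots was r = 0.71, 0.66 and 0.72 at 0, 30 and 60 min, against 0.51, 0.53 and 0.51 across all 5642, which share the same hybridizations. Spots are not independent replicates, and the rule itself asks for a like course in both assays.

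The falls in the 2 assays are values the spots were chosen on, with a stricter log2 limit in GRO than in RNAp ChIP, so their sizes are a description and no assay can be said to dip further. On the log2 scale the median fall, taken as the mean of 0 and 60 min minus 30 min, came to 1.19 for GRO against 0.96 for RNAp ChIP, and it was larger in GRO at 92 of the 142 spots. When each assay was divided by the SD of its levels over spots, the medians were 0.86 and 1.02, and GRO was larger at 51 of the 142. Levels at 0 min had an SD over spots of 1.35 in GRO, against 0.91 in RNAp ChIP. Across the 142 spots the falls of the 2 assays correlated at r = 0.52 (Spearman's rho 0.46), against r = 0.30 across all spots. The median of GRO minus RNAp ChIP on the log2 scale was 0.13, -0.07 and -0.05 at 0, 30 and 60 min, where all spots had -0.02, -0.001 and -0.06.

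**Figure D3:**
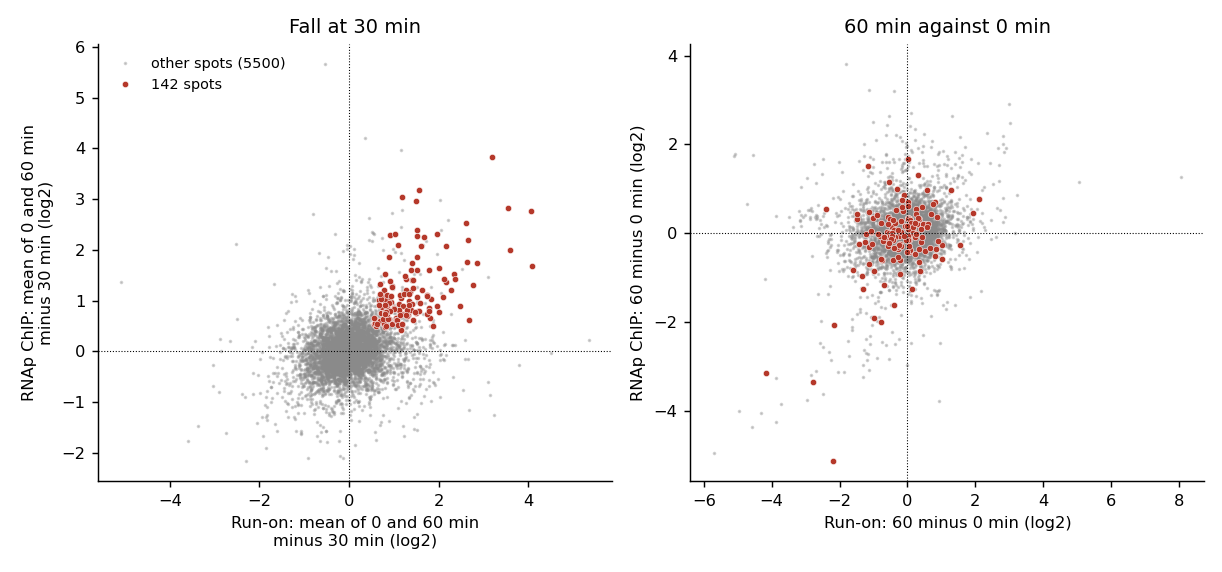
Left, the fall at 30 min (mean of 0 and 60 min minus 30 min, log2) in GRO on the horizontal axis and in RNAp ChIP on the vertical axis; right, the difference of 60 minus 0 min (log2) in both. Red points are the 142 spots and grey points the others measured in both assays. The left red cloud lies at upper right because it was chosen there, with r = 0.52 within it, and the right red cloud is centred near 0 (medians -0.19 and -0.02) with a few spots far below 0 in both assays.

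The 2 assays came from separate material and hybridizations, so spots chosen on one can be read in the other. The cultures behind them may be shared, however, and so may the filters. The GRO limits alone picked 560 spots (9.93% of 5642), and the RNAp ChIP limits alone picked 575 (10.2%). The 142 spots that met both were 25.4% of the former and 24.7% of the latter. This overlap depended on the denominators. With the mean genomic DNA or WCE as the denominator, 621 spots met the GRO limits, 708 the RNAp ChIP limits and 292 both. The cause was not tested. Among the 560 spots chosen on GRO, RNAp ChIP had a median difference of -0.18 against 0 min and -0.22 against 60 min. Among them limma, with Benjamini-Hochberg adjustment over all 5829 spots of the assay and a threshold of 0.05, called 69 lower at 30 than at 0 min in RNAp ChIP (12.3%), against 3.59% of all spots. It called 32 lower at 30 than at 60 min (5.71%, against 1.36%).

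In the other direction, among the 575 spots chosen on RNAp ChIP, GRO had a median difference of -0.41 against 0 min and -0.21 against 60 min. There limma called 68 lower at 30 than at 0 min (11.8%, against 3.39% of all 5699 spots) and 15 lower at 30 than at 60 min (2.61%, against 0.421%). In RNAp ChIP, 98 of the 560 spots had all 30 min replicates below all others (17.5%, against 6.54%), and in GRO 97 of the 575 did (16.9%, against 5.21%). Each share was above that of all spots, yet most spots chosen on one assay were not called in the other.

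These counts moved by over 1.5 times when single hybridizations were left out. Without RNAp ChIP replicate 1 or 3 at 30 min, 35 and 33 of the spots chosen on GRO were called lower against 0 min. Their calls against 60 min were 11, 21 and 12 without replicate 1, 2 or 3 at 30 min, and 15, 11 and 16 without replicate 1, 2 or 3 at 60 min. The GRO calls against 0 min were 37 without replicate 2 at 0 min and 42, 39 and 38 without replicate 1, 2 or 3 at 30 min. The GRO calls against 60 min were 4, 8 and 4 without these, and 3, 3 and 5 without replicate 1, 2 or 3 at 60 min. In each of these fits fewer spots of the whole array were called as well. Over the 19 fits that left out 1 hybridization or both GRO hybridizations on filter 6, the share among the chosen spots was at least 2.81 times that among all spots in RNAp ChIP and at least 3.00 times in GRO. Without filter 6, which served 0 and 60 min, the GRO calls were 27 (4.94%, against 1.29% of all spots) and 1 (0.183%, against 0.0185%). That 1 call was the only one on the array in its contrast and direction. With the mean denominator the RNAp ChIP calls were 25 and 6, where 1.12% and 0.187% of all spots were called. With the replicate number as a block, the GRO calls were 42 against 0 min (7.30%, against 1.81% of all spots) and 4 against 60 min (0.696%, against 0.0702%).

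Of the 142 spots themselves, limma called 45 lower in GRO at 30 than at 0 min and 13 lower at 30 than at 60 min, and in RNAp ChIP 56 and 30. The background is the 3.39%, 0.421%, 3.59% and 1.36% given above, and the choice of the spots used these contrasts, so nothing is read from the counts beyond how many single spots passed on their own.

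Choosing on 2 replicates of every group left the remaining one as a reading that the choice had not used. With replicate 1, 2 or 3 left out, 136, 129 and 120 spots met the rule, of which 90, 89 and 87 were among the 142. All values were present in the left-out replicate at 132, 124 and 118 of them. There all 4 differences were below 0 at 84 (63.6%), 81 (65.3%) and 79 (66.9%), against 12.6%, 15.6% and 14.3% of all spots. The full limits were met again at 52 (39.4%), 48 (38.7%) and 45 (38.1%), against 2.33%, 3.05% and 2.70% of all spots.

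The median GRO difference against 0 min in the left-out replicate was -0.99, -1.09 and -1.20, and against 60 min it was -0.77, -0.87 and -0.70. The median RNAp ChIP difference against 0 min was -0.75, -0.80 and -0.95, and against 60 min it was -0.83, -0.73 and -0.82. All but one of these medians, the -1.20, were closer to 0 than that of the 142 spots for the same difference. The genomic DNA on filter 6 divided replicate 3 at 0 min and replicate 2 at 60 min, so the left-out replicates 2 and 3 share that denominator with a replicate used for the choice. Replicate 1 at 0 and at 30 min was read on filter 1, which no other replicate used.

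**Figure D4:**
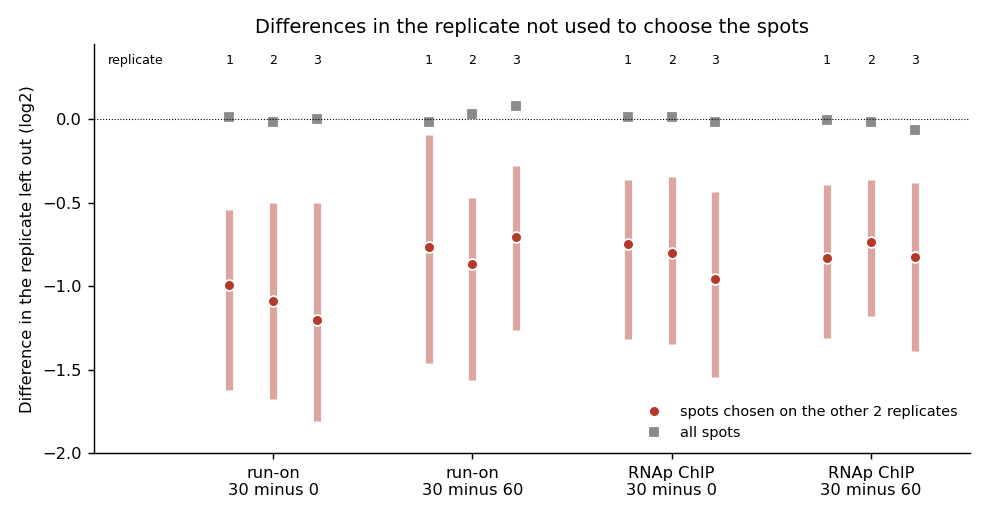
Differences (log2) at 30 min in the replicate that was not used to choose the spots, for each of the 4 contrasts and each left-out replicate. Red points are medians and red bars the interquartile range of the spots chosen on the other 2 replicates, and grey squares are medians of all spots. The red medians run from -1.20 to -0.70 and the grey ones from -0.07 to 0.08.

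The return by 60 min was close to complete for the typical spot and varied widely. The rule set no limit on the difference between 60 and 0 min but used the same values, so what follows is not independent of the choice. The median difference of 60 minus 0 min was -0.19 in GRO (range -4.17 to 2.10), below 0 at 81 of the 142 spots. In RNAp ChIP it was -0.02 (range -5.15 to 1.66), below 0 at 75. All spots had medians of -0.03 and 0.03. Expressed as the share of the difference between 0 and 30 min that was regained by 60 min, the median was 88.3% in GRO (interquartile range 58.6% to 122%) and 97.0% in RNAp ChIP (74.98% to 132%). At 61 spots GRO regained 100% or more, and at 67 RNAp ChIP did. Less than 50% was regained at 21 spots in GRO and at 15 in RNAp ChIP.

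With the limits of the rule used as margins, 55 of the 142 spots lay within 0.5 in GRO and within 0.4 in RNAp ChIP of their level at 0 min. At 14 spots both assays lay below these margins and at 7 both lay above. GRO lay below its margin while RNAp ChIP lay within its own at 24 spots, and the converse held at 11. The 44 spots with GRO below its margin had started high, with a median GRO level of 1.76 at 0 min, -0.58 at 30 min and 0.62 at 60 min. In RNAp ChIP their median levels were 0.83, -0.50 and 0.28. The 19 spots with GRO above its margin had started near the centre, at 0.03, and had medians of -1.08 at 30 min and 0.84 at 60 min. These classes were cut on the difference of 60 minus 0 min itself, so the higher start of the former and the lower start of the latter come in part with the split and with the spread of replicates, and few single spots passed the test of that difference.

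In limma's test of 60 against 0 min, 6 of the 142 spots were lower in GRO (4.23%, against 1.77% of all spots) and 1 was higher (0.704%, against 0.597%). In RNAp ChIP 9 were lower (6.34%, against 1.48%) and 1 was higher (0.704%, against 0.875%). At an unadjusted p below 0.05, 23 were lower (16.2%, against 10.1% of all spots) and 6 higher (4.23%, against 6.53%) in GRO. In RNAp ChIP 16 were lower (11.3%, against 6.78%) and 10 higher (7.04%, against 7.48%). A p that misses the threshold does not show that a spot was back at its level of 0 min. The 7 GRO calls were 4 without replicate 1 and 2 without replicate 2 at 0 min, 4 without replicate 3 at 30 min, and 3, 2 and 2 without replicate 1, 2 or 3 at 60 min. Fewer of all spots were called in these fits as well. The shares called lower were 0.603%, 0.357%, 1.35%, 0.711%, 0.125% and 0.271% in the same order, and the shares called higher also fell. With only the 2 time points compared the GRO calls were 4, where 0.439% of all spots were called lower and 0.158% higher. The 10 RNAp ChIP calls were 4 without replicate 2 at 60 min, where 0.941% of all spots were called lower and 0.418% higher. Without both GRO hybridizations on filter 6, limma called 0 of the 133 spots still measured in GRO, and 0 of all spots as lower. At an unadjusted p below 0.05 it had 17 lower and 4 higher among the 133, and 543 lower among all 5406.

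Called lower at 60 than at 0 min in both assays were 3 of the 142 spots, which were singled out after their values were seen and are named by their rank in depth. The share of all spots called in both assays is not given, so the count is a description only. In single assays 1.77% of all spots were called lower in GRO and 1.48% in RNAp ChIP. Without both GRO hybridizations on filter 6, no GRO call lower at 60 min was left, at these or any other spots. The spot of rank 5 had GRO levels of 0.60, 0.35 and 1.15 at 0 min, -5.95, -3.06 and -5.95 at 30 min, and -2.75, -2.83 and -4.82 at 60 min. Its RNAp ChIP levels were 1.14, 1.56 and 1.17, then -3.07, -1.46 and -2.29, then -1.47, -2.20 and -1.88. Both assays stayed far below 0 min at 60 min, and their replicates at 30 and 60 min overlapped, with a change of -4.17 in GRO (adjusted p = 0.0422, limma) and -3.14 in RNAp ChIP (adjusted p = 0.00243, limma).

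The spot of rank 7 had GRO levels of 2.50, 2.76 and 3.61 at 0 min, -0.98, -0.88 and -1.47 at 30 min, and 0.10, 0.64 and -0.26 at 60 min. In RNAp ChIP it had 2.42, 3.46 and 2.51, then -1.02, -0.91 and -1.32, then -0.54, -0.65 and -0.50. Groups did not overlap in either assay, and the change from 0 to 60 min was -2.79 in GRO (adjusted p = 0.0122, limma) and -3.36 in RNAp ChIP (adjusted p = 2.39e-04, limma). The spot of rank 16 changed by -2.16 in GRO (adjusted p = 0.0194, limma) and -2.08 in RNAp ChIP (adjusted p = 0.00637, limma). At these spots the level at 60 min was well below that at 0 min. Their difference between 30 and 60 min is part of the rule and is not read further.

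The spots named by identifier were the deepest 2 with all 18 values and full separation of the replicates in both assays, and the 2 with the highest mean change from 0 to 60 min. The spot R14 - C10 : 9, of rank 3 in depth, had the plainest dip and return. Its GRO levels were 3.28, 3.20 and 3.24 at 0 min, -0.51, -0.15 and -1.12 at 30 min, and 3.00, 2.58 and 2.43 at 60 min. Its RNAp ChIP levels were 2.80, 3.89 and 3.79, then 0.77, 0.80 and -0.01, then 2.87, 3.48 and 3.25. It was among the highest spots at the outer time points, it regained 85.1% of the difference in GRO and 90.1% in RNAp ChIP, and it belonged to the spots with a dim denominator.

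The spot R11 - C6 : 6, of rank 2 in depth, had GRO levels of 2.47, 2.36 and 2.65 at 0 min, -2.02, -1.51 and -2.34 at 30 min, and 2.23, 1.24 and 1.66 at 60 min. In RNAp ChIP it had 2.93, 3.49 and 3.63, then -0.996, 0.32 and -0.58, then 1.52, 1.26 and 1.27. The share regained was 82.4% in GRO and 46.9% in RNAp ChIP. From 0 to 60 min RNAp ChIP changed by -2.0003 (standard error 0.33, adjusted p = 0.0135, limma), and the GRO difference of -0.78 (standard error 0.31) had an adjusted p of 0.252 in limma. Neither denominator of this spot was dim.

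The spot R7 - C7 : 6 began near the centre of both assays and ended above it. Its GRO levels were -0.23, 0.08 and 0.25 at 0 min, -0.99, -0.45 and -0.74 at 30 min, and 1.54, 1.46 and 0.95 at 60 min. Its RNAp ChIP levels were 0.32, -0.22 and -0.05, then -1.34, -0.91 and -1.44, then 1.12, 0.84 and 1.01. From 0 to 60 min GRO rose by 1.28 (standard error 0.26, adjusted p = 0.0433, limma), and the RNAp ChIP difference of 0.97 (standard error 0.21) had an adjusted p of 0.0527 in limma. The spot was named for this high change. The GRO call was lost without replicate 1 or 2 at 0 min, any replicate at 30 or 60 min, or filter 6. It was also lost with the replicate block, only 2 time points or the mean denominator. Without the spots with the brightest 2% of genomic DNA, none of the 142 was called higher in GRO either. Fewer of all spots were called higher in these fits as well.

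The spot R5 - C24 : 4 was the least certain of the 4. Its GRO levels were -3.71, 0.65 and -0.59 at 0 min, -3.84, -1.13 and -0.44 at 30 min, and 0.79, 1.11 and 0.25 at 60 min. The first replicate at 0 and at 30 min was read on filter 1 both times and lay far below the rest, and the replicates at 0 and 30 min overlapped. Its GRO difference between 30 and 0 min was -0.59 and turned to 0.34 without replicate 2 at 0 min and to 0.43 without replicate 1 at 30 min. In RNAp ChIP it had -0.70, -0.22 and -0.52 at 0 min, -1.38, -1.37 and -0.42 at 30 min, and 0.25, -0.02 and -0.31 at 60 min, again with overlap. It belonged to the spots with a dim denominator.

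**Figure D5:**
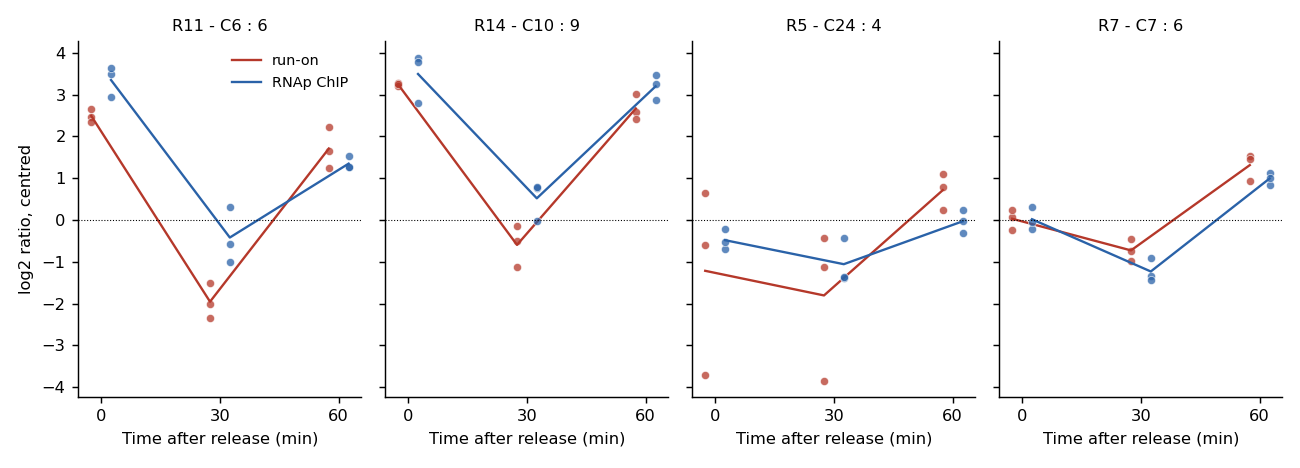
Centred log2 ratio of the 4 spots named by identifier against time after release (min). Points are single replicates of GRO (red) and RNAp ChIP (blue), moved slightly apart, and lines join the means of 3. R11 - C6 : 6 and R14 - C10 : 9 separate at 30 min in both assays, R7 - C7 : 6 ends above its level at 0 min, and R5 - C24 : 4 has GRO replicates from -3.84 to 0.65 at 0 and 30 min.

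A difference between the assays in the change from 0 to 60 min was tested for all 5642 spots in one limma fit. On z-scores within each hybridization it was called at 6 of the 142 spots, against 0.727% of all spots. On the log2 scale it was called at 2 of them, against 0.656%. At the others no difference between the courses of active and total polymerase was called. At an unadjusted p below 0.05 in limma there were 19 of the 142 on z-scores and 20 on the log2 scale. All spots had 14.4% and 13.9%, so these unadjusted counts are close to the background. The spots that were called are given one by one in the closing section.

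On the array, the 142 spots were spread over 107 of 384 blocks of 16 positions, with at most 3 in a block. Another of the 142 lay in the same block for 67 of them (47.2%), where 26.7% of all spots had one of the 142 elsewhere in their block. At the same position of an adjacent block 24 of them (16.9%) had another, against 8.77% of all spots. The counts per array row ran from 4 to 19 and those per block position from 3 to 21. Neighbouring spots share a region of the filter, and the part of position in the choice was not tested. With the medians of array rows removed from every hybridization, 142 spots met the rule and 132 of them were shared, and with the medians of block positions removed 139 did and 126 were shared.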

How the data were processed

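Filters with whole-ORF probes were hybridized with 33P-labelled run-on RNA, genomic DNA, IP or WCE DNA, the latter pair after amplification by ligation-mediated PCR, which can change relative amounts. What the authors deposited is each spot's intensity after background subtraction in ArrayVision, not normalized between hybridizations. No column of values was left unused. An intensity of 0 was treated as missing. Log2 ratios were taken on the same filter (GRO) or with the same replicate number (RNAp ChIP), centred on the median of each hybridization, and averaged where at least 2 of 3 replicates were present, with numpy 2.4.6 and pandas 2.3.3 under Python 3.11.15. Contrasts were fitted with limma 3.58.1 in R 4.3.3 over the 9 hybridizations of an assay (5699 spots in GRO, 5829 in RNAp ChIP), with p-values adjusted by Benjamini-Hochberg and called below 0.05, and were tested on simulated data. The number of arrays limits the precision. The spots, limits and comparisons were chosen with earlier results of these data known. The spots named by identifier follow a rule on depth, completeness, separation of replicates and mean change from 0 to 60 min. The study's background threshold and rDNA scaling were not applied. Alternatives were leaving out hybridizations, other denominators, centring, filters, limits and fits. Same-numbered GRO replicates at 0 and 30 min deviated together from their group means (r = 0.509, 0.129 and 0.172 across spots). The first pair shares the genomic DNA of filter 1, so its r does not show that the numbers pair samples. The calls come from the fit without the replicate number. The fit with the replicate block is given beside the GRO calls between these times at the spots chosen on RNAp ChIP. In the other contrasts at least 1 pair did not exceed 0.1.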

Additional observations from a re-analysis of the deposited data

Results flagged for a closer look

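At 7 of the 142 spots the change from 0 to 60 min in GRO differed from that in RNAp ChIP in limma's test of the difference between the assays, on z-scores or on the log2 scale. They are given by their rank in depth, with the difference as GRO minus RNAp ChIP on the log2 scale, and the cause was not tested. The test uses the 0 and 60 min values that also chose the spots.

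At rank 39 the difference was -2.95 (adjusted p = 0.0118, limma, log2 scale). GRO went from 3.37, 3.79 and 3.59 at 0 min to 0.89, 1.34 and 1.32 at 60 min, while RNAp ChIP went from 1.55, 0.49 and -0.02 to 1.24, 1.19 and 1.25. The centred GRO ratio was thus lower at 60 min, while the RNAp ChIP replicates at 0 min lay on both sides of those at 60 min. At rank 44 the difference was -1.91 (adjusted p = 0.0485, limma, log2 scale; 0.0727 on z-scores), with a change of -1.48 in GRO and 0.43 in RNAp ChIP. At rank 87 it was -0.93, called on z-scores (adjusted p = 0.0454, limma) and not on the log2 scale (0.124), with -0.56 in GRO and 0.37 in RNAp ChIP.

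At the other 4 spots GRO was the higher of the changes and the call was made on z-scores only. At rank 66 the difference was 1.39 (adjusted p = 0.0318 on z-scores, limma), with RNAp ChIP at 1.43, 1.31 and 0.88 at 0 min and -0.09, -0.07 and 0.03 at 60 min, and GRO at 0.84, 1.13 and 1.09, then 0.93, 0.94 and 1.61. At rank 37 it was 1.33 (adjusted p = 0.0318, limma), with a change of 0.81 in GRO and -0.52 in RNAp ChIP. At rank 36 it was 1.22 (adjusted p = 0.0135, limma), with -0.39 in GRO and -1.61 in RNAp ChIP. At rank 7 it was 0.57 (adjusted p = 0.0454, limma), with -2.79 in GRO and -3.36 in RNAp ChIP, so both assays were lower at 60 min. The adjusted p of that spot on the log2 scale was 0.628.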

How the results depend on the processing

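Leaving out 1 hybridization in turn gave 125 to 146 spots that met the rule, and 115 to 137 of the 142 stayed among them. Without both GRO hybridizations on filter 6, 117 met it (110 shared). With the mean genomic DNA or WCE as the denominator of all hybridizations 292 met it, sharing 84 of the 142, and 119 of the 142 kept all 4 differences below 0. Limits 1.5 times as strict gave 60 spots (307 on GRO and 287 on RNAp ChIP alone), limits at 0.5 times gave 358 (1063 and 1158), and exchanging the RNAp ChIP samples of 30 and 60 min gave 27. Without the 25% dimmest denominators 306 spots met the GRO limits, and 110 of the 142 were still measured. There limma called 12 of them in GRO at 60 against 0 min, where 3.96% of all spots were called lower and 1.56% higher. The calls at 30 against 60 min among spots chosen on the other assay were 50 in RNAp ChIP and 29 in GRO, with 2.56% and 1.19% of all spots called. The mean denominator gave 25 and 6 calls in RNAp ChIP among spots chosen on GRO in place of 69 and 32, with 1.12% and 0.187% of all spots called, and median differences against 60 min of -0.77 in GRO and -0.80 in RNAp ChIP. Quantile normalization gave RNAp ChIP medians of -0.92 against 0 min and -0.87 against 60 min, and the median of replicates in place of the mean, added after the data were seen, gave -0.89 and -0.88. The share below 0 in all 4 differences in the left-out replicate, 65.3% on average, was 51.7% with the mean denominator, 67.2% with array row medians removed and 63.1% with block position medians removed, all chosen after the data were seen. The causes were not tested.

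Without filter 6 the GRO calls were 0 at 60 against 0 min, and 27 and 1 among spots chosen on RNAp ChIP. For the latter pair, 1.29% and 0.0185% of all spots were called. Leaving out 1 hybridization moved the calls at 60 against 0 min to 2 to 7 in GRO and 4 to 12 in RNAp ChIP. Over all spots, 0.125% to 2.08% were then called lower in GRO and 0.941% to 1.41% in RNAp ChIP. The calls in the other assay ranged over 33 to 74 and 11 to 41 in RNAp ChIP, and over 37 to 69 and 3 to 17 in GRO. The shares of all spots then ranged over 1.74% to 4.01% and 0.365% to 1.69% in RNAp ChIP. In GRO they ranged over 1.41% to 3.39% and 0.0533% to 0.493%. The median GRO difference against 60 min ranged from -1.09 to -0.95. The GRO difference between 30 and 0 min at R5 - C24 : 4 ranged from -1.83 to 0.43, and reversed to 0.34 without replicate 2 at 0 min and 0.43 without replicate 1 at 30 min. With only the 2 time points compared, limma called 4 of the 142 in GRO at 60 against 0 min. Of all spots it called 0.439% lower and 0.158% higher. The difference between the assays was called at 2 spots on the log2 scale in place of 6. Same-numbered replicates of 0 and 60 min deviated from their group means with r = 0.12, -0.29 and -0.38 in GRO and -0.11, 0.13 and -0.11 in RNAp ChIP. Replicate 3 at 0 min and replicate 2 at 60 min share the genomic DNA of filter 6. The GRO values of r therefore do not decide whether the numbers pair these samples. With the replicate block the calls at 60 against 0 min were 2 in GRO and 9 in RNAp ChIP. Of all spots, 0.632% and 1.12% were called lower and 0.193% and 0.618% higher. In the same fits, added after the data were seen, calls at 30 min were also counted among spots chosen on the other assay. In RNAp ChIP they were 45 (8.04%, against 2.26% of all spots) and 15 (2.68%, against 0.566%). In GRO they were 42 (7.30%, against 1.81%) and 4 (0.696%, against 0.0702%).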
